A study of Rattus norvegicus with 20 samples.

Results

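miR-140 is made from a single rat hairpin that yields a mature miRNA from each side, miR-140-5p and miR-140-3p. Both arms were taken by name from the small RNA libraries of the adBNST, the anterodorsal part of the bed nucleus of the stria terminalis, so they are 2 of the 617 miRNA names with reads and 2 of the 500 that were abundant enough to be tested. They were chosen by their levels and arm ratio in socially isolated (SI) against group-housed (GH) rats of these same libraries, and for that reason every comparison of SI with GH is given as a description with no test. The adBNST is a part of the extended amygdala that takes part in stress and anxiety responses, and the study asked how housing in adolescence affects its miRNAs in adult males and females.

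Sprague-Dawley rats of both sexes were GH or SI, which gave 4 groups of 5 rats. All rats were weaned at postnatal day 21. SI rats then lived alone and GH rats with same-sex littermates for 6 weeks, and tissue was punched at 9 weeks of age after a test on the elevated plus maze, which all groups underwent. The sequenced females were selected from a larger set for RNA integrity and to span estradiol levels, according to the study's methods. The punch holds every cell type of the region, so fewer cells of a type and less RNA per cell cannot be told apart. Libraries held between 3428930 and 11383055 miRNA reads, and neuronal miRNAs (miR-124-3p, miR-128-3p and miR-9a-5p) were present in every library, with summed normalized counts of 525956 to 1195021. The 2 SI rats numbered 17 have one sex in their labels and the other in the names of their data. They were placed by their labels, as I17M and I17F. One SI female library, I16F, stood apart: it listed no miR-140-5p read and had the fewest distinct miRNA sequences when every library was brought to the same depth of 3428930 reads, 8922 against 10362 to 18012 in the other libraries.

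A miRNA hairpin is cut by Drosha and then by Dicer to a duplex, and usually 1 strand of it is loaded into an Argonaute protein while the other is degraded. The loaded strand recognises target mRNAs mainly through its seed, the bases counted 2 to 8 from its 5′ end, so a start moved by a single base gives another seed. miR-140 is best known from cartilage, and its gene lies within the gene of the ubiquitin ligase WWP2. In the rat annotation, too, Mir140 lay within the span of Wwp2, a protein-coding gene.

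The hairpin is shown first because the position of both arms in it decides which bases a shifted start adds or removes. It is the RefSeq sequence of GRCr8, chr19:52375293-52375391 on the plus strand, with the reference forms of the 5p arm (chr19:52375314-52375335) and of the 3p arm (chr19:52375353-52375373) in capitals.
Mir140 hairpin: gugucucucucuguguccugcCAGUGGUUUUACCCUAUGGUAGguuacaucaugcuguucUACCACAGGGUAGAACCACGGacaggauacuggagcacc

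The next sequences are the 3 most read forms of each arm, with the seed in capitals. The most read miR-140-3p form that starts 2 bases in is added as the last. The first and the fourth are the reference forms, and the others were read from the deposited libraries with U written for T.
rno-miR-140-5p, reference: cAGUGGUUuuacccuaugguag
rno-miR-140-5p, with an added U: cAGUGGUUuuacccuaugguagu
rno-miR-140-5p, 1 base shorter with an added A: cAGUGGUUuuacccuaugguaa
rno-miR-140-3p, reference: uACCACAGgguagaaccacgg
rno-miR-140-3p, start 1 base in: aCCACAGGguagaaccacggac
rno-miR-140-3p, start 1 base in and 1 base longer: aCCACAGGguagaaccacggaca
rno-miR-140-3p, start 2 bases in: cCACAGGGuagaaccacggaca
Among the 693 mature rat miRNAs with a RefSeq sequence, each reference seed was held by miR-140-5p or miR-140-3p alone, and the seeds of the forms that start 1 or 2 bases in were held by none.

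The 3p arm held nearly all reads of the hairpin. Over the 20 libraries 136281 reads were assigned to miR-140-3p, in 364 distinct sequences, and 3634 to miR-140-5p, in 29 distinct sequences. Normalized counts are reads scaled to the effective library size, the total corrected by the TMM method, and to the mean of that size over the libraries. On this scale miR-140-3p averaged 6825 and ranked 93 of the 500 miRNAs tested, while miR-140-5p averaged 189 and ranked 281. The arms also differed in how steady they were. Within groups, the SD of the log2 normalized count was 0.16 for miR-140-3p, rank 497 of 500 from the most to the least variable, and 1.74 for miR-140-5p, rank 147, with a median over all miRNAs of 0.73. Without I16F these SDs were 0.16 and 0.93, ranks 499 and 187, and the median was 0.61. The SDs were not set against those of miRNAs with a like count.

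miR-140-3p had normalized counts of 6247, 7737, 7389, 6819 and 7213 in GH males (rats G16M, G19M, G18M, G20M and G21M) and of 7281, 6344, 7523, 7874 and 7084 in SI males (I15M, I19M, I22M, I17M and I20M). The counts were 5348, 7606, 6074, 7294 and 5656 in GH females (G15F, G12F, G16F, G13F and G17F) and 7309, 7344, 5956, 6645 and 5746 in SI females (I14F, I10F, I17F, I12F and I16F). All 4 groups overlapped, with means ± SD of 7081 ± 572, 7221 ± 572, 6396 ± 1002 and 6600 ± 742 (n = 5 each) in the same order. The log2 fold change of SI against GH was 0.03 (SE 0.16) in males and 0.05 (SE 0.16) in females. Scaled by the library total alone, it was −0.12 and −0.17.

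miR-140-5p, in contrast, varied widely between rats of one group. Normalized counts of the GH males were 174, 49.1, 205, 206 and 208 in the order above, those of the SI males 21.9, 184, 101, 131 and 85.8. GH females had 255, 276, 580, 216 and 628, and SI females had 76.7, 166, 175, 45.3 and 0. The groups averaged 168 ± 68.2, 105 ± 59.4, 391 ± 196 and 92.5 ± 76.0 (SD, n = 5), and the SI females 116 ± 64.4 (n = 4) without I16F. In females, all 5 SI rats lay below all 5 GH rats, which 1.6% of all miRNAs tested also showed, whereas the groups overlapped in males, where 3 of the 5 GH rats lay above every SI rat and G19M lay below 4 of the 5 SI rats. On the log2 scale SI against GH was −2.08 (SE 0.77) in females, −1.74 without I16F, and −0.69 (SE 0.74) in males. Of all miRNAs, 0.4% were called in the female and 4% in the male comparison (edgeR, adjusted p of 0.05). These values chose the arms, and nothing is read from them.

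**Figure D1:**
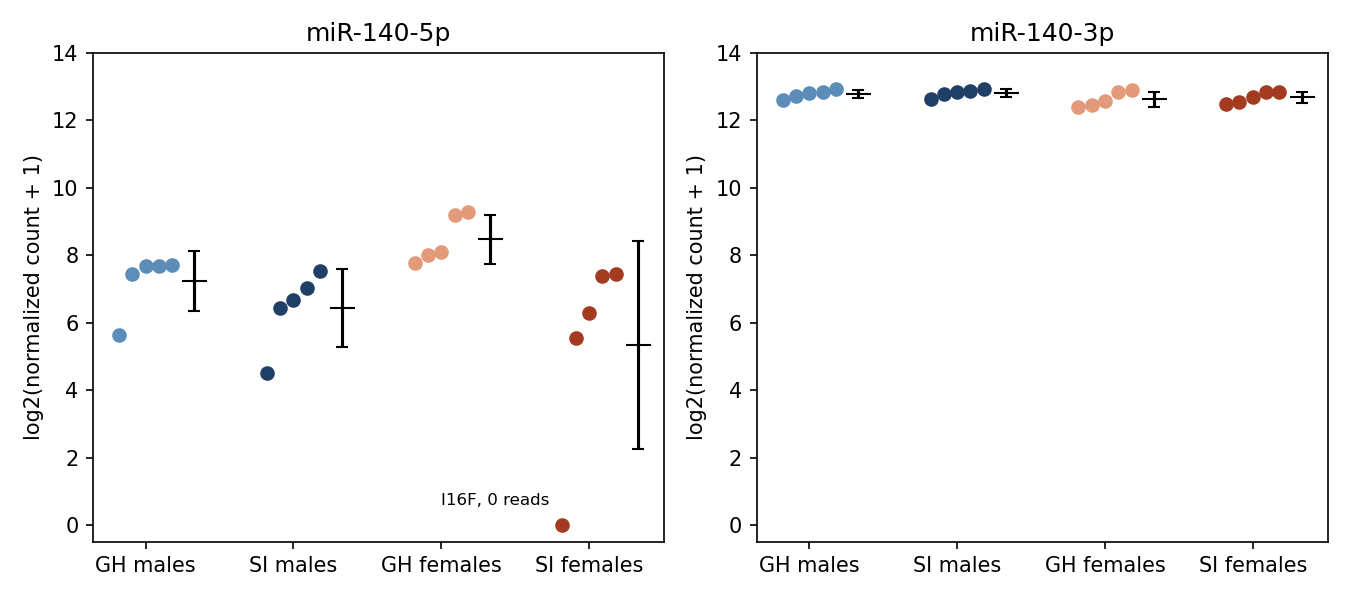
Level of each miR-140 arm in each rat, as log2 of the normalized count plus 1 (vertical axis, the same scale in both panels) by group (horizontal axis). Each point is a rat and the bars are the mean and SD of 5 rats. The points of miR-140-3p lie close together in all groups, and those of miR-140-5p spread widely, with I16F at 0 reads.

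Each value of miR-140-5p rests on few reads and few sequences. Between 30 and 563 reads were listed in the 19 libraries that had any, in 2 to 13 distinct sequences, and the most read sequence held between 32.8% of them (G18M) and 86.1% (I15M). After I16F, the fewest reads were listed in G19M, I15M and I12F, with 30, 36 and 47 reads in 2 sequences each. No sequence under 2 reads is listed in any library. The count of 0 in I16F thus means that no miR-140-5p sequence reached 2 reads among its 6255123 miRNA reads, and not that the arm was absent. miR-140-3p had 4009 reads or more in every library, in 39 to 99 distinct sequences.

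Other measures were set beside miR-140-5p by housing group. At equal depth, distinct miRNA sequences numbered 12721 to 18012 in GH females and 8922 to 13260 in SI females, 12119 to 17273 in GH males and 10362 to 14152 in SI males. Among the GH females, in falling order of miR-140-5p, G17F, G16F, G12F, G15F and G13F had 17030, 18012, 15333, 12721 and 16958. In the same order, the SI females I17F, I10F, I14F, I12F and I16F had 11455, 13260, 12491, 11851 and 8922. The GH males G21M, G20M, G18M, G16M and G19M had 15161, 17273, 14760, 12119 and 12585. The SI males I19M, I17M, I22M, I20M and I15M had 14152, 10362, 12526, 12180 and 12190. The miRNAs of mural cells, the smooth muscle cells and pericytes of vessels (miR-143-3p and miR-145-5p, 2 of 2 tested), had summed normalized counts of 63506 to 126238 in GH and 13113 to 88086 in SI females, and of 60124 to 91437 and 25900 to 41760 in males. Those of endothelial cells (miR-126a-3p and miR-126a-5p, 2 of 2 tested) summed to 6053 to 14287 and 511 to 7012 in females, and to 5631 to 7873 and 1654 to 4464 in males. For both lists the GH and SI ranges overlapped in females and not in males. None of these markers was at 0 in all libraries, and the part of sequence number or vessel cells in the levels of miR-140-5p was not tested.

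Between the sexes, neither arm passed the test. The contrast of the sexes did not choose the arms, but it uses the same rats and values as the contrast of housing that did. Its tests of levels, ratio and starts are therefore not independent of that choice. All 5 GH females had more miR-140-5p than all 5 GH males (lowest female 216, highest male 208), as 0.6% of all miRNAs did in that direction. The log2 fold change of GH females against GH males was 1.21 (SE 0.75, edgeR quasi-likelihood test, adjusted p = 0.996). In SI rats it was −0.18 (SE 0.74, edgeR, adjusted p = 0.960). For miR-140-3p the values were −0.15 (SE 0.16, edgeR, adjusted p = 0.996) in GH and −0.13 (SE 0.16, edgeR, adjusted p = 0.892) in SI rats. edgeR called 0 of 500 miRNAs in either contrast, with 12 in GH and 50 in SI rats at an unadjusted p under 0.05, and DESeq2 called 5 in each.

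The ratio of the arms is a comparison within a library, so scaling does not change it. It can still depend on depth, since sequences under 2 reads are not listed and miR-140-5p had few reads. Reads of miR-140-3p outnumbered those of miR-140-5p 35.97, 158, 36.1, 33.02 and 34.7 to 1 in GH males, so that 4 of the 5 rats had nearly the same ratio and G19M another. In SI males the ratios were 332, 34.6, 74.5, 60.1 and 82.5, and only I19M lay in the range of those 4 GH males. GH females had ratios of 21.0, 27.6, 10.5, 33.7 and 9.01, the lowest of all groups. SI females had 95.3, 44.3, 34.1 and 147, and the ratio of I16F, with 0 reads of 4680 on the 5p arm, is not defined.

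As log2(3p/5p), the groups averaged 5.56 ± 0.97 in GH males, 6.40 ± 1.21 in SI males, 4.16 ± 0.85 in GH females and 6.08 ± 0.97 in SI females (SD, n = 5, and n = 4 in SI females). SI exceeded GH by 0.84 in males, where the groups overlapped, and by 1.92 in females. All 4 SI females lay above all 5 GH females, but the nearest rats of both groups, at 5.09 (I17F) and 5.08 (G13F), were almost equal. With 0.5 added to each count, which brings I16F in, the difference in females was 3.34. The share of miR-140 reads on the 5p arm ranged from 0.300% in I15M (95% Wilson interval 0.217 to 0.415) to 9.99% in G17F (9.14 to 10.9). These intervals cover the error of counting reads alone. They do not cover that of counting molecules, since the reads carry no molecular identifiers here.

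**Figure D2:**
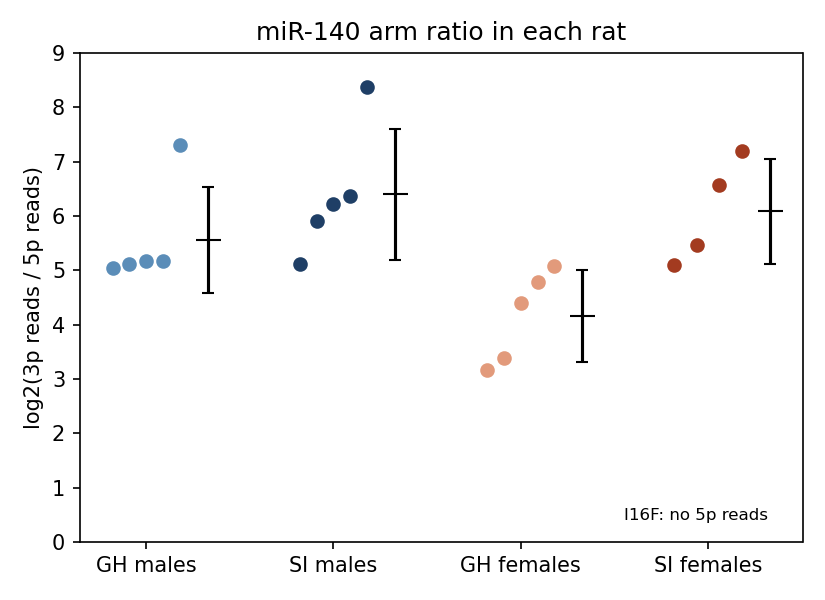
Arm ratio of miR-140 in each rat, as log2 of reads of miR-140-3p over reads of miR-140-5p (vertical axis), by group (horizontal axis), with mean and SD. Of the GH males 4 sit between 5.05 and 5.17 with G19M at 7.30, the GH females lie between 3.17 and 5.08, and I16F has no 5p reads and no point.

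GH females had the lower ratio of the 2 sexes, by 1.40 on the log2 scale, and 4 of the 5 GH females lay below every GH male. An exact two-sided permutation test of 5 against 5 rats gave p = 0.0159, with 0.00794 the smallest p it allows. After Benjamini-Hochberg adjustment over the 6 exact tests of sex (ratio and 2 start shares, in GH and in SI rats) p was 0.0952, so the difference did not pass. With each rat left out in turn, the difference passed 0.05 in 1 of 20 fits. That fit left out G13F, the GH female nearest to the males (1.63 lower, exact permutation test, adjusted p = 0.0476). Leaving out this rat removes the overlap of the groups, so the test could only give its smallest p, and nothing is concluded from it. In SI rats the female mean was 0.31 lower (exact permutation test, p = 0.714, adjusted p = 0.873, n = 5 and 4, smallest possible p again 0.00794).

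Whether the arms varied together between rats was tested within groups. Deviations from the group means of the log2 normalized counts of both arms had a Pearson r of 0.12 (p = 0.74) and a Spearman rho of −0.017 (p = 0.95) over 20 rats, by 100000 permutations within groups, two-sided. Without the 2 rats farthest from the median in miR-140-5p, I16F and I15M, r was −0.23. Within males r was −0.37 (permutation p = 0.31) and within females 0.26 (permutation p = 0.53). Thus no relation between the levels of the arms was detectable in these rats.

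Other hairpins show how the balance of miR-140 compares. Both arms were among the miRNAs tested for 158 hairpins, of which 76 had more 3p than 5p reads on average and 56 in every library. miR-140 had more 3p reads in all 20 libraries and a mean log2(3p/5p) of 5.90 (0.5 added to each count in this comparison), rank 26 in the share of the 3p arm. Its difference between SI and GH ranked 12 of 158 by size in females (3.34, median size over hairpins 0.935) and 87 in males (0.83, median size 0.917). The value in females, and with it the rank, includes I16F with 0 reads of the 5p arm. With no count added, the 4 SI females that had such reads gave 1.92, for which no rank was taken. Ratios of SI females all above those of GH females were found for 2.53% of hairpins, miR-140 included. The largest mean differences over both sexes were those of miR-345 (4.46), miR-32 (3.81) and miR-338 (−3.31), each with an arm at 0 reads in at least 1 library, as in miR-140, which ranked 20.

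**Figure D3:**
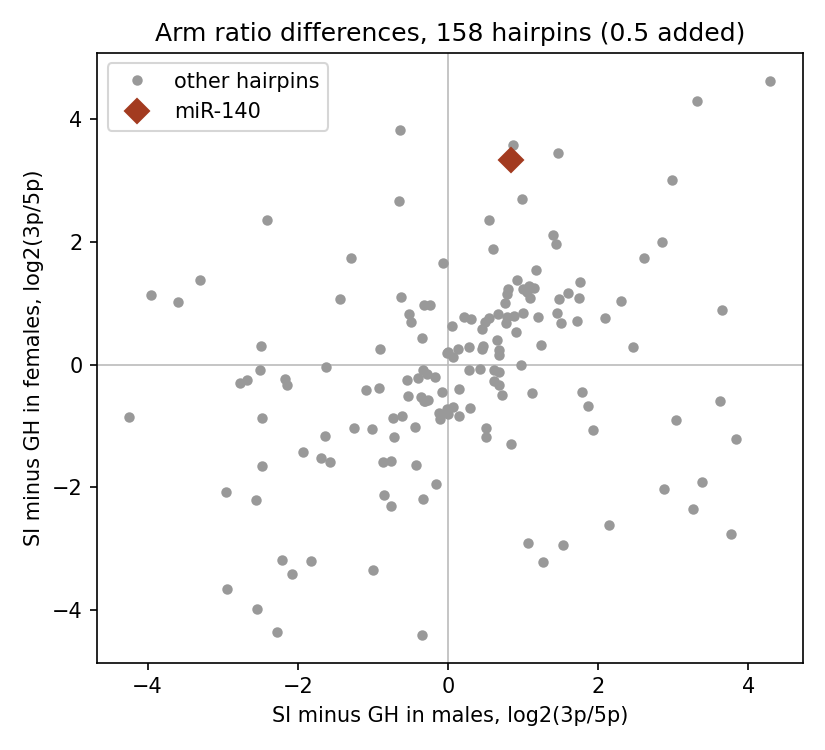
Difference in log2(3p/5p) between SI and GH rats for 158 hairpins, in males (horizontal axis) and in females (vertical axis), with 0.5 added to each count. Each point is a hairpin and the diamond is miR-140, which lies at 0.83 in males and 3.34 in females, inside the spread of the other hairpins. The value in females includes I16F, which had 0 reads of miR-140-5p.

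The 3p arm was read with 2 starts in nearly equal amounts. Over all libraries 50.95% of miR-140-3p reads began at the reference base, 46.4% began 1 base in and 2.417% began 2 bases in, with 0.0910% 1 base before the reference and 0.136% 3 bases in. The most read form of the arm was not the reference (14850 reads, 10.9% of the arm) but the form that starts 1 base in and ends 2 bases beyond the reference end (21875 reads, 16.05%), followed by the same form with 1 more base (15150 reads, 11.12%). All 3 were listed in all 20 libraries. Reads starting 2 bases in numbered 3294 in 20 libraries, and the most read sequence among them, shown above, had 1170 reads in 19 libraries. miR-140-5p had a more uniform start over all libraries, with 95.29% of reads at the reference base and 3.495% 1 base in. In single libraries the share at the reference base ranged from 61.97% (I22M) to 100%. Its reference form held 57.54% of the arm and was listed in 18 libraries.

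Starts as mixed as those of miR-140-3p were uncommon. Of 132 miRNAs with at least 1000 reads in every library, the median miRNA had 2.405% of its reads at another start than the reference, and miR-140-3p had 49.2% (40.8% to 55.0% over libraries), rank 7. The miRNAs with the most were miR-505-3p (88.0%), miR-330-3p (74.8%) and miR-409a-3p (71.9%).

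Reference-start reads made up 51.0%, 49.8%, 45.0%, 50.8% and 50.8% of miR-140-3p in GH males and 48.95%, 52.2%, 47.9%, 57.2% and 50.6% in SI males. In females they were 45.9%, 51.5%, 52.4%, 47.3% and 52.4% (GH) and 53.7%, 50.2%, 59.2%, 47.5% and 51.9% (SI). The 2 highest shares were those of the rats I17M and I17F, and the groups overlapped in both sexes. Means were 49.5 ± 2.54, 51.4 ± 3.63, 49.9 ± 3.09 and 52.5 ± 4.38% (SD, n = 5), so SI exceeded GH by 1.9 percentage points in males and by 2.59 in females. Without I17M the difference in males was 0.45, and without I17F that in females was 0.92. With each rat left out in turn, the highest values were 2.77 in males (without I22M) and 3.84 in females (without I12F), and the value in males was 0.78 without G18M and that in females 1.58 without G15F.

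Reads starting 1 base in mirrored these shares, with means of 48.0 ± 3.03% in GH males, 46.7 ± 3.24% in SI males, 47.5 ± 3.37% in GH females and 43.6 ± 3.20% in SI females. The start 2 bases in ranged from 1.11% to 2.86% in males of both groups and from 1.44% to 2.998% in GH females, while SI females spread from 1.01% (I14F) to 5.79% (I12F), with 5.06% in I16F and 4.23% in I10F. Females and males did not differ detectably in either main start. The difference in reference-start reads was 0.42 percentage points in GH (exact permutation test, p = 0.873, adjusted p = 0.873) and 1.12 in SI rats (exact permutation test, p = 0.659, adjusted p = 0.873). For the start 1 base in it was −0.51 in GH (exact permutation test, p = 0.794, adjusted p = 0.873) and −3.13 in SI rats (exact permutation test, p = 0.183, adjusted p = 0.548).

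Fitted among all 1219 miRNA-by-start features, the reference-start reads changed by 0.01 (SE 0.19) in males and −0.01 (SE 0.19) in females between GH and SI on the log2 scale, and the reads starting 1 base in by −0.09 and −0.19 (SE 0.19 each). In these contrasts 2.21% of features were called in males and 0.164% in females. Against males, GH females had −0.09 and −0.13 (edgeR, adjusted p = 0.999 each) and SI females −0.11 and −0.23 (edgeR, adjusted p = 0.974 each) for the reference start and the start 1 base in. edgeR called no feature of 1219 in either contrast of the sexes (24 in GH and 105 in SI rats at an unadjusted p under 0.05), while DESeq2 called 3 and 22.

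**Figure D4:**
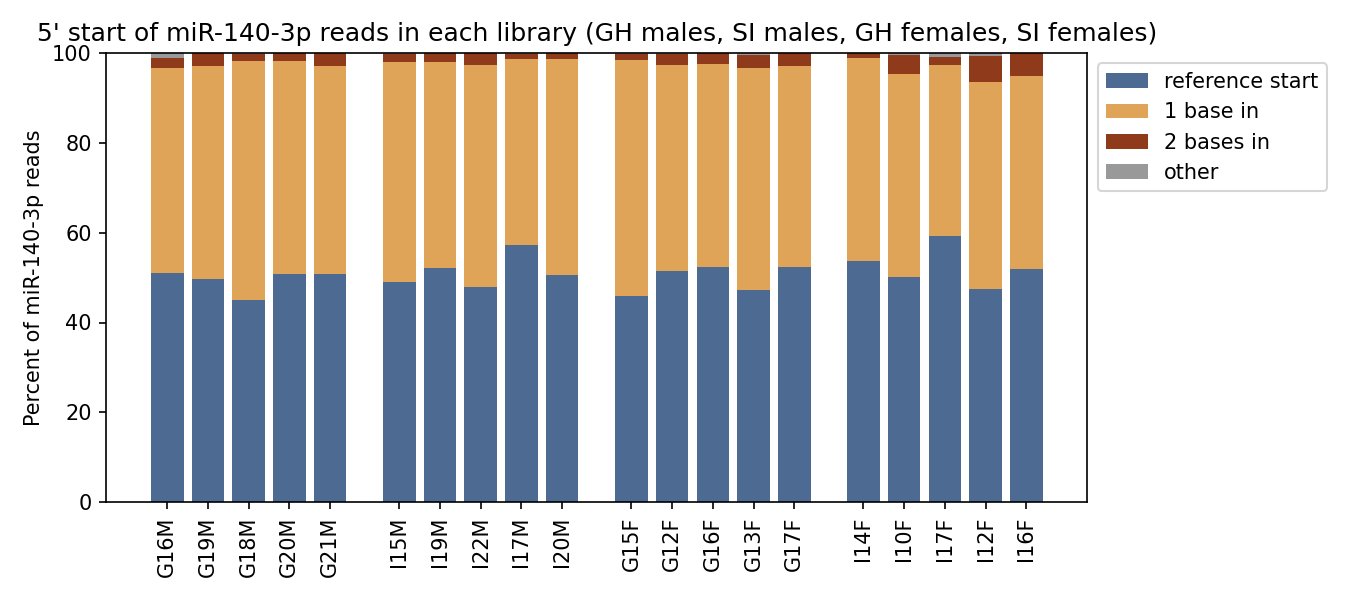
Percent of miR-140-3p reads (vertical axis) by 5′ start in each of the 20 libraries (horizontal axis, males first, GH before SI). The reference start holds 45.0% to 59.2% and the start 1 base in 38.2% to 53.3%, and the start 2 bases in is widest in I12F, I16F and I10F.

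The 3′ ends of miR-140-3p reads differed between the 2 main starts. Over all libraries 16.07% of reads ended at the reference end, 25.26% 1 base, 34.95% 2 bases and 21.67% 3 bases beyond it, counting only bases that match the hairpin. Reads with the reference start ended on average 1.12 to 1.53 bases beyond the reference end, and reads starting 1 base in 1.59 to 2.06 bases beyond it. The second group ended later in all 20 libraries, by 0.32 to 0.66 bases. Of reference-start reads 22.4 ± 5.21% ended at the reference end and 26.6 ± 4.33% 2 bases beyond it (SD, n = 20), and of reads starting 1 base in 10.7 ± 3.88% and 43.03 ± 5.07%. Reads with the shifted start thus also ended further out, by less than the 1 base by which the start was shifted.

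**Figure D5:**
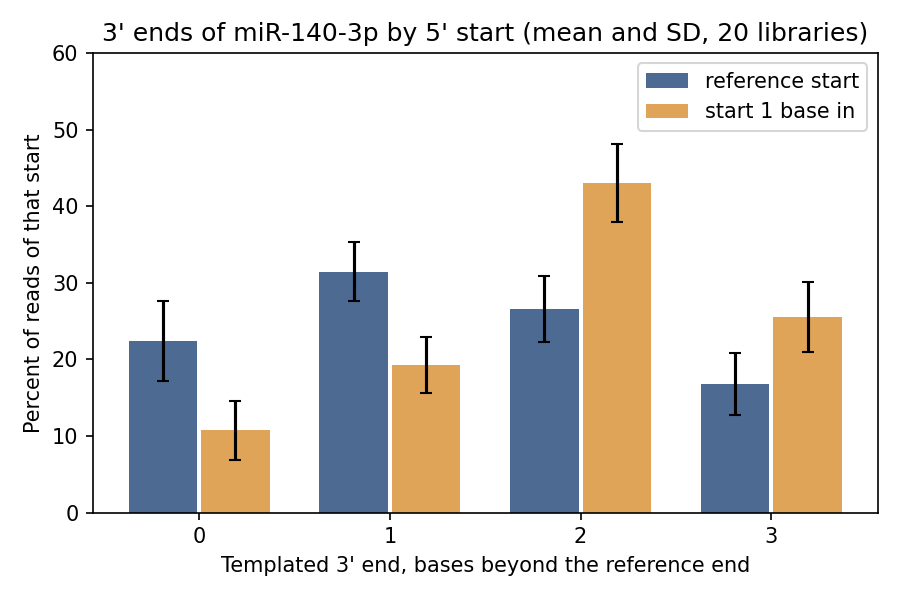
Percent of miR-140-3p reads of a given 5′ start (vertical axis) that end at each base beyond the reference 3′ end (horizontal axis), as mean and SD of 20 libraries. Reference-start reads peak at 1 base (31.4%) and reads starting 1 base in peak at 2 bases (43.03%).

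The 3′ end of miR-140-3p also lay further out in SI than in GH rats. Its mean position beyond the reference end was 1.46, 1.51, 1.41, 1.56 and 1.45 bases in GH males and 1.72, 1.66, 1.65, 1.72 and 1.64 bases in SI males. All 5 SI males lay above all 5 GH males, with 1.48 ± 0.059 and 1.68 ± 0.041 as means (SD, n = 5). GH females had 1.54, 1.48, 1.38, 1.61 and 1.42 bases and SI females 1.55, 1.54, 1.61, 1.65 and 1.78, so that the groups overlapped. Their means were 1.49 ± 0.090 and 1.62 ± 0.098, and the SI mean was 1.59 ± 0.054 (n = 4) without I16F.

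The difference between SI and GH was thus 0.20 bases in males and 0.14 in females, rank 3 and rank 4 towards longer ends among the 132 abundant miRNAs, whose median differences were −0.0051 and −0.00068 bases. Of these miRNAs 6.82% had every SI male above every GH male. In males the later end was seen at both starts, with 1.21 ± 0.083 in GH against 1.42 ± 0.067 in SI rats for the reference start and 1.72 ± 0.084 against 1.94 ± 0.069 for the start 1 base in (SD, n = 5). In females the means were 1.26 ± 0.11 against 1.40 ± 0.089 and 1.69 ± 0.062 against 1.85 ± 0.15, with groups that overlapped at both starts. This contrast of housing is the one with which the arms were chosen, so it is given without a test.

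Bases that do not match the hairpin were added to 21.91% of miR-140-3p reads, most often A alone (9.844%) or U alone (6.84%, read as T), and to 31.48% of miR-140-5p reads (A 16.81%, U 14.61%). For miR-140-3p the share with an addition ranged from 18.3% (I16F) to 24.6% (I19M), and for miR-140-5p from 2.78% (G15F) to 86.1% (I15M). Mismatches were listed for 1.856% and 1.569% of reads of the 3p and the 5p arm. No read of either arm was assigned to a further miRNA.

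The miRNAs whose log2 normalized counts ran most like miR-140-5p over the 20 libraries were miR-136-5p (Pearson r 0.905, Spearman rho 0.71), miR-106b-5p (0.904 and 0.731) and miR-29c-3p (0.904 and 0.756). These values rest in part on I16F, without which r was 0.682, 0.707 and 0.696. For miR-140-3p they were miR-488-3p (r 0.647, rho 0.508), miR-344b-1-3p (0.621 and 0.435) and miR-501-3p (0.612 and 0.564), with r of 0.593, 0.561 and 0.558 without I16F. The points share libraries, depth and housing groups, and the correlations are given as a description.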

How the data were processed

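Small RNA of adBNST punches was sequenced in 20 libraries (215 ng of total RNA, 22 cycles of PCR). The authors trimmed reads with cutadapt, aligned them to miRBase v21 using seqbuster. For each library they deposited raw counts per distinct sequence, beside its miRNA, mismatch, 3′ addition and end differences. The lowest listed count was 2. The versions of cutadapt and seqbuster are not given in the sources used here. PCR duplicates cannot be removed from such counts.

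Counts were summed per miRNA, and per miRNA and 5′ start. Features with at least 10 counts in at least 5 libraries were fitted with the quasi-likelihood F test of edgeR 4.0.16 (R 4.3.3, TMM, 4 group means in 1 model), with Benjamini-Hochberg adjustment over all 500 miRNAs or 1219 features at 0.05. The tests were checked on simulated data. SEs follow from each log2 fold change and its F value. DESeq2 1.42.0, the authors' tool, was an alternative. Log2 normalized counts had 1 added. Arm ratios and shares were computed from raw counts and compared between sexes by exact permutation (scipy 1.17.1, Python 3.11.15, pandas 2.3.3, numpy 2.4.6).

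The members and the lists of markers and hairpins were chosen with earlier results of these data known. Besides both arms, the named miRNAs are the 3 most correlated with each arm, the 3 hairpins with the largest mean difference in ratio, and the 3 miRNAs with the most reads at another start. The 3′ end was added after the data had been seen. Rats were treated as replicates, and littermates may be among them. No library was a copy of another (lowest chi-square per degree of freedom within groups 130.3). Alternatives were another scaling, tool, filter or set of groups, reads without mismatch or addition, a minimum of 5 reads, each rat left out, the 2 I17 libraries exchanged and the animal number as a block.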

Additional observations from a re-analysis of the deposited data

Results flagged for a closer look

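In groups of 5 rats, the lowest or highest rat was set against the nearest of the others by Dixon's test in 32 combinations of a group and a measure of miR-140, and chance flags about 1 in 20. Among GH males, G19M had the lowest miR-140-5p, at 5.65 as log2 normalized count with the next rat at 7.45, and the highest log2(3p/5p), at 7.30 with the next at 5.17. Both values come from the same 30 reads in 2 sequences. I16F was the lowest SI female in miR-140-5p, at 0 on the log2 scale with the next rat at 5.53. G18M had the lowest share of reference-start miR-140-3p reads among GH males, 45.0% with the next at 49.8%, and the highest share starting 1 base in, 53.3% with the next at 47.5%, which are 2 sides of 1 measure.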

How the results depend on the processing

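The comparisons of SI with GH had no test, and their values moved by less than 1 SD between rats under nearly all settings. The exceptions were the log2 fold change of miR-140-3p with the library total alone (−0.17 in females and −0.12 in males), the log2(3p/5p) difference in females with 0.5 added (3.34), which includes I16F, the 3′ end of miR-140-3p in males from reads without an addition (0.25 bases), and the ratio in males under the block. The library total moved the median difference of all miRNAs in females from −0.32 to −0.53 on the log2 scale. With each rat left out, SI against GH for miR-140-5p ranged from −2.43 to −1.74 in females and −0.99 to −0.45 in males, the ratio from 1.55 to 2.25 and 0.34 to 1.27, the share of reference-start reads from 0.92 to 3.84 and 0.45 to 2.77 percentage points, and the 3′ end from 0.10 to 0.17 and 0.18 to 0.22 bases. The lower ratio of GH females ranged from −1.63 to −0.96. It passed 0.05 by the exact permutation test only without G13F (adjusted p 0.0476), the rat whose removal leaves no overlap of the groups. That of SI females turned to 1.11 with 0.5 added, with no call. With the 2 I17 libraries exchanged, miR-140-5p was −2.22 in females and −0.57 in males. With only the GH groups in the edgeR fit, miR-140-5p of females against males was 1.18 (edgeR, adjusted p 0.650). The covariation of the arms gave r from −0.33 to 0.22 with each rat left out and 0.35 with the library total (permutation p = 0.28).

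Counts of all miRNAs called depended on the tool: 20 in males and 2 in females by edgeR, 60 and 67 by DESeq2, and 5 in both contrasts of the sexes where edgeR had 0. Among starts DESeq2 called 73 in males and 78 in females, against 27 and 2. With only the 2 groups compared, edgeR called 84 miRNAs in males and 0 in females, with the I17 libraries exchanged 11 and 5 (8 and 5 starts), and with the block, on 10 rats, 0 and 0 where the same rats with no block gave 0 and 55. Left-out rats moved the edgeR counts of miRNAs to 7 to 73 in males (73 without I16F) and 1 to 63 in females (63 without I10F), and those of starts to 0 to 60 and 0 to 53.

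Animal numbers occur in both housing groups for 2 pairs of males and 3 of females. The labels give no other link between rats of the same number, and their deviations from the group means correlated between −0.30 and 0.09. Such correlations cannot tell whether these rats shared a litter. With the number as a block, on those 10 rats, SI against GH was 0.34 in males and −3.63 in females for miR-140-5p (0.09 and −2.71 in the same rats with no block), −0.08 and −0.05 for miR-140-3p, and −0.43 for the ratio in males, from pairs at −2.19 and 1.32.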
